A study of Mus musculus with 6 samples.

Results

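Lymphomas of Eµ-Myc mice that carried the hairpin shEzh2.781 were compared with premalignant B cells of Eµ-Myc mice, on 4 of the 6 arrays of the series. Every gene with a probe set of its own symbol was taken, except those on chromosomes X and Y, which left 19187 of 19938 genes. For a gene with several probe sets the one with the highest mean over the 6 arrays stood for it.

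Every sample carries the Eµ-Myc transgene, in which the oncogene Myc is under the control of the enhancer of the immunoglobulin heavy chain and is therefore active in B cells. The 2 premalignant arrays hold sorted splenic B cells from independent preparations; one label field calls the same cells normal, but titles and source call them premalignant. The 2 shEzh2.781 arrays hold primary B cell lymphomas that arose with a short hairpin RNA against Ezh2. A further 2 arrays, of lymphomas with another Ezh2 hairpin, shEzh2.556, serve to show what is particular to the shEzh2.781 lymphomas. Lymphoma cells were purified with CD43 beads, after which 95% or more of them carried B220, a B cell antigen, and GFP. The labels give no strain or age. Whether the 2 lymphomas of 1 hairpin arose in different animals is not stated either, so the p-values reflect only how much these samples vary, and that variation may be technical. All lymphomas analysed here carry an Ezh2 hairpin and were purified in another way than the premalignant cells. Tumour state, hairpin and preparation therefore cannot be told apart in the comparison with premalignant cells. Between shEzh2.781 and shEzh2.556, hairpin and individual tumour cannot be told apart either. A difference between hairpins below means one between these 2 pairs of lymphomas.

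Ezh2 is the catalytic subunit of polycomb repressive complex 2 (PRC2), which methylates lysine 27 of histone H3 and keeps developmental genes silent. Polycomb repressive complex 1 (PRC1) acts on the same chromatin. In the B lineage Ezh2 is high in dividing progenitors and in germinal centre cells and is known for its part in immunoglobulin heavy chain rearrangement in pro-B cells.

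Values are log2 signals per probe set, so a difference of 1 is a 2-fold change, and levels are compared between arrays and not between genes. Medians of all probe sets lay between 6.75 and 6.91 on the 6 arrays, and the 2 shEzh2.781 arrays correlated at 0.996 over genes, as did the premalignant pair. A gene was called at a Benjamini-Hochberg adjusted p under 0.05 from limma, fitted to all 6 arrays. The median gene differed by -0.03 from premalignant cells and by -0.07 from shEzh2.556 lymphomas. Of 8 B cell markers 7 were measured, among them Cd79a, Cd79b, Pax5, Ebf1 and Ms4a1, and on the shEzh2.781 arrays they lay between 10.4 and 13.0.

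The hairpin's target was examined first. Ezh2 stood at 12.64 and 12.70 in premalignant cells, at 10.92 and 11.07 in shEzh2.781 lymphomas and at 11.20 and 11.30 in shEzh2.556 lymphomas. Both shEzh2.781 arrays were below the 4 others. Ezh2 fell by 1.68 ± 0.11 (log2, SE), which is 3.20-fold (limma, adjusted p = 3.44e-06), and the difference of -0.26 from the other hairpin was not called (adjusted p = 0.15).

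Against premalignant cells, 892 genes (4.65% of those tested) were higher in shEzh2.781 lymphomas and 1187 (6.19%) were lower. Of these 197 and 250 differed at least 2-fold. Against shEzh2.556 lymphomas, 1049 genes (5.47%) were higher and 872 (4.54%) were lower. Genes that were called in the same direction against both groups numbered 205 higher (1.07%) and 150 lower (0.782%). The comparisons share the shEzh2.781 arrays. These percentages are the shares over all genes to set beside each count of list members below. The split depends on how arrays are scaled: centring each array on its median turned the share of calls that were higher from 42.9% to 67.8% against premalignant cells, from 54.6% to 83.1% against shEzh2.556 and from 57.7% to 83.9% against both. With all 35512 probe sets in the fit, a setting chosen after seeing the data, the calls dropped to 368 higher and 453 lower against premalignant cells, 141 and 80 against shEzh2.556, and 32 and 14 against both.

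**Figure D1:**
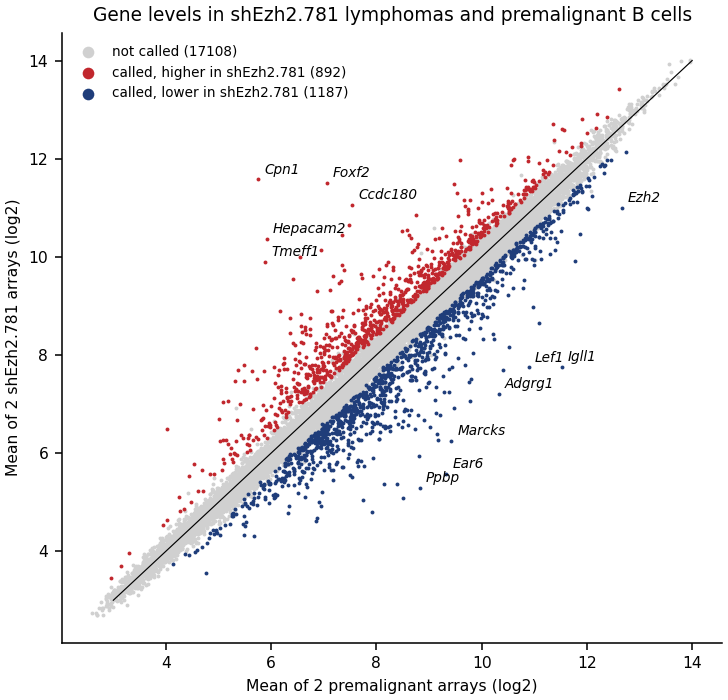
Mean log2 level of each of 19187 genes on the 2 premalignant arrays (x axis) and on the 2 shEzh2.781 arrays (y axis), with called genes in red and blue and the line of equality in black. Cpn1, Hepacam2 and Foxf2 lie farthest above the line, and Igll1, Ear6 and Ppbp farthest below it.

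The greatest distances from both other groups were those of Rasgef1a, Tmeff1 and Stac on the high side and of the red cell genes Car2, Slc4a1 and Car1 on the low side. Rasgef1a, an exchange factor for Ras family GTPases, stood at 7.11 and 7.68 in premalignant cells, 6.68 and 6.84 with shEzh2.556, and 9.84 and 9.60 with shEzh2.781. It was 5.04-fold above premalignant cells and 7.79-fold above shEzh2.556 (limma, adjusted p = 6.09e-06 and 1.95e-06). Stac, an adaptor of voltage-gated calcium channels, was flat at 6.31 to 6.37 on the 4 other arrays and read 8.43 and 8.45 in shEzh2.781 lymphomas. This was a rise of 2.08 ± 0.11 (log2, SE) over premalignant cells and a distance of 2.11 from shEzh2.556 (limma, adjusted p = 3.85e-07 and 5.99e-07).

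Promoters are shown for 7 of the 24 genes with the greatest distances, picked after their CG counts were known so that each side has a window rich in CG and one poor in it. Each is the 250 bases before the first transcription start listed by RefSeq (GRCm38.p6), on the gene's strand, 5′ to 3′. The windows are chr6:118011255-118011504 (plus strand) for Rasgef1a, chr4:48584924-48585173 (plus) for Tmeff1, chr9:111690349-111690598 (minus) for Stac, chr8:125994852-125995101 (plus) for Kcnk1, chr17:40810899-40811148 (plus) for Rhag, chr1:80758554-80758803 (minus) for Dock10 and chr4:134864286-134864535 (plus) for Rhd. Capitals mark CG, except in Rhd, where they mark the GATA motif AGATAA.
Rasgef1a: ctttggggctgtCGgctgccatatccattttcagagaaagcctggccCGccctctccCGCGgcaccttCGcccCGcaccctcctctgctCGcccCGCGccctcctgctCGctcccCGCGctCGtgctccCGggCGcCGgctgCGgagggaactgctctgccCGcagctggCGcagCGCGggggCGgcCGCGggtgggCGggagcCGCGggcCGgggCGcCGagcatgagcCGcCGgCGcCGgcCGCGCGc
Tmeff1: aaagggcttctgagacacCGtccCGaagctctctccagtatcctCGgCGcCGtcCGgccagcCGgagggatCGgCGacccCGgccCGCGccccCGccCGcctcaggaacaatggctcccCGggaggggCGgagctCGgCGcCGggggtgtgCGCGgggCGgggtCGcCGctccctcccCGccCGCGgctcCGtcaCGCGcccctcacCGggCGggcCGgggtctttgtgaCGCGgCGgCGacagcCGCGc
Stac: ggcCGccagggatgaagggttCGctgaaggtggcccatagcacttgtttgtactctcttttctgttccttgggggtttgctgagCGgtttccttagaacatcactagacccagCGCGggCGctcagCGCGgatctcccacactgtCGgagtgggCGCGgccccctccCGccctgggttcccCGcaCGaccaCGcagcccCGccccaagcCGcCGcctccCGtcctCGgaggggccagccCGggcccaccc
Kcnk1: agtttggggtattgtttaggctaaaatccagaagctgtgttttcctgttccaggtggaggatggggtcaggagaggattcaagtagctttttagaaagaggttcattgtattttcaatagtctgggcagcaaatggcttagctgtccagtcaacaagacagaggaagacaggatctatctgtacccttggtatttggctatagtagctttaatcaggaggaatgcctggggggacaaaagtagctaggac
Rhag: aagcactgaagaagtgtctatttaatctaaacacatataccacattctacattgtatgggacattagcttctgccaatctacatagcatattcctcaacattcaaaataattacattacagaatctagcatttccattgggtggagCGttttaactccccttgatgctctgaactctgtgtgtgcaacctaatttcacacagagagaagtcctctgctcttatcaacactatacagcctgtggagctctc
Dock10: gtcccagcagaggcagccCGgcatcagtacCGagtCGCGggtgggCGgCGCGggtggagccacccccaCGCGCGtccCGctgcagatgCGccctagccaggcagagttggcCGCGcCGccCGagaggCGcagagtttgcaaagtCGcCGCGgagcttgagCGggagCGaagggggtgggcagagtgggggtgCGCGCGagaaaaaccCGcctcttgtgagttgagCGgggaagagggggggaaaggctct
Rhd: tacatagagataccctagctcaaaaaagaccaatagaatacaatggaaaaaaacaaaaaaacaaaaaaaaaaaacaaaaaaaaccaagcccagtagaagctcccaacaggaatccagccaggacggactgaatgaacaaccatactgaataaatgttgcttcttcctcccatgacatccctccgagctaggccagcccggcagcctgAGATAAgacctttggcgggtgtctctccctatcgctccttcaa

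CG content did not separate the sides gene by gene. Of the 12 genes with the greatest distance, 8 on each side had a listed promoter. On the high side the windows held 37 CG pairs for Rasgef1a, 39 for Tmeff1, 21 for Stac, 16 for Sgsm1 and 42 for Igf1r, but 0 for Kcnk1, 4 for Eml1 and 2 for Zfp931. On the low side they held 27 for Dock10 and 12 for Tnfrsf21, and 1 to 5 for Rhag, Slc15a2, Aqp1, Nxpe2, Hemgn and Rhd. Rhag and Rhd are both of the Rhesus blood group family. CG counts were read over all genes with a listed promoter, 15008 of 19187. The median window held 11 CG pairs. It held 14 for the 149 listed genes higher than in both other groups and 6 for the 119 listed genes lower than in both. Against premalignant cells alone it was 14 for 680 higher and 13 for 934 lower genes. The MYC E-box CACGTG, its own reverse complement, was in 7.03% of all windows, in 7.38% of those higher than in both groups and in 9.24% of those lower. AGATAA or its reverse complement TTATCT, searched on both strands, was in 8.67% of all windows, in 7.38% of the higher and in 10.9% of the lower set. Among the 16 erythroid genes that were lower than in both groups, 11 had a listed promoter and 4 of these (36.4%) held AGATAA or TTATCT. Other forms of the GATA motif were not searched, so a window without these letters may still hold one. These counts describe the letters of these windows and no binding was measured.

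Tmeff1, a transmembrane protein with follistatin-like domains, rose from 5.79 and 5.99 to 9.83 and 9.96, and read 8.30 and 7.29 with shEzh2.556. It was thus 16.1-fold above premalignant cells and 4.29-fold above the other hairpin (limma, adjusted p = 1.30e-06 and 0.000386). Kcnk1, a potassium leak channel, went from 7.06 and 7.62 to 10.47 and 10.41, with 8.09 and 8.80 in shEzh2.556 lymphomas. Eml1, which binds microtubules, went from 7.14 and 6.77 to 10.23 and 10.03, with 8.26 and 8.11 in shEzh2.556 lymphomas. In these 3 genes the shEzh2.556 arrays lay between the other groups, whereas Rasgef1a and Stac were at or below premalignant levels there.

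Igf1r, the receptor of insulin-like growth factor 1, stood at 8.76 and 8.68 in premalignant cells and at 10.20 and 10.06 with shEzh2.781, and at 7.89 and 8.51 with shEzh2.556. The rise was 1.41 ± 0.17 (log2, SE), and the distance from shEzh2.556 was 1.93 (limma, adjusted p = 0.000262 and 6.35e-05). Grk3, a kinase that desensitizes G protein-coupled receptors, rose 2.52-fold, and Plekha7, a protein of adherens junctions, 2.71-fold. Sgsm1, a modulator of small GTPases, rose 3.37-fold, Zfp931, a zinc finger gene, 3.01-fold, Arsi, a sulfatase, 3.17-fold and Farp1 3.13-fold. For these 6 genes the distance from shEzh2.556 lay between 1.25 and 1.97 on the log2 scale. Zfp931 and Farp1 varied most between the 2 lymphomas, with 6.57 and 7.41 for Zfp931 and 8.75 and 7.75 for Farp1. With all probe sets in the fit, Zfp931, Arsi and Farp1 were no longer called against both other groups. Without array 1 of shEzh2.556 the smaller difference of Farp1 was no longer called (limma, adjusted p = 0.0874).

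**Figure D2:**
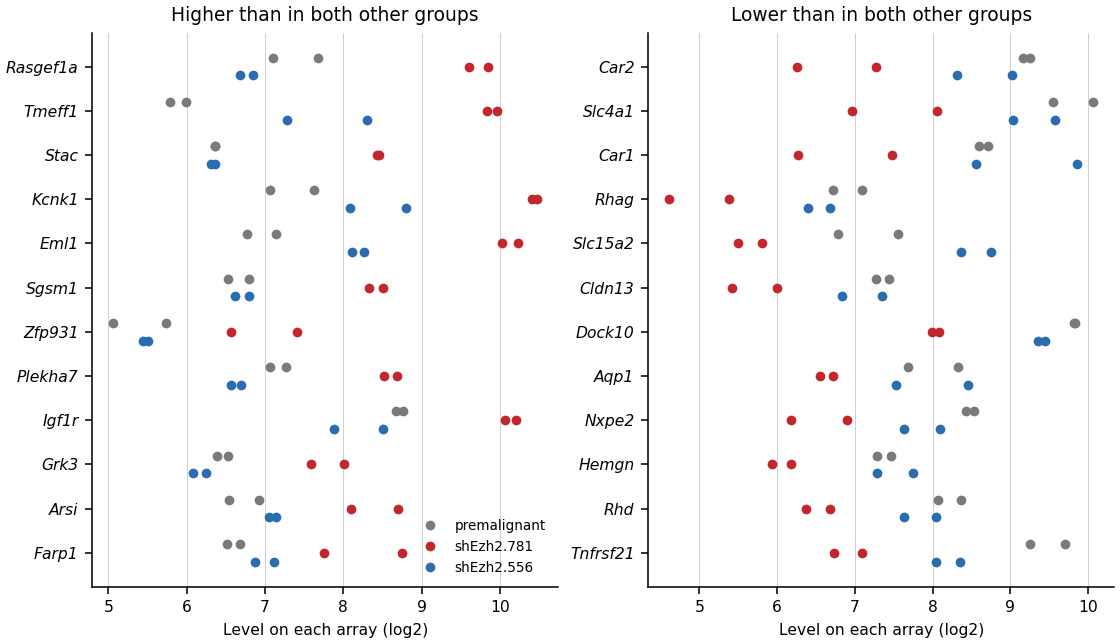
Log2 level on each array (x axis) of the 12 genes in each direction with the largest smaller difference from both other groups, 1 point per array. The red shEzh2.781 points lie outside the range of the 4 other arrays for every gene, which the selection required; Rasgef1a and Stac read 9.60 to 9.84 and 8.43 to 8.45.

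On the low side, 7 of the 12 genes with the greatest distance are on the erythroid list, Car2, Slc4a1, Car1, Rhag, Cldn13, Aqp1 and Rhd, and Hemgn, a nuclear protein of blood cell precursors, is not on it. Slc4a1, the band 3 anion exchanger of red cells, read 9.55 and 10.06 in premalignant cells, 6.96 and 8.05 with shEzh2.781, and 9.58 and 9.03 with shEzh2.556. It fell by 2.30 ± 0.30 (log2, SE) from premalignant cells and was 1.80 below shEzh2.556 (limma, adjusted p = 0.000383 and 0.00359). Car2, a carbonic anhydrase abundant in red cells, read 9.17 and 9.25, then 6.26 and 7.28, with 9.02 and 8.32 in shEzh2.556 lymphomas. Rhag, the Rh-associated glycoprotein, read 6.71 and 7.09, then 4.61 and 5.38, with 6.68 and 6.39 in shEzh2.556 lymphomas. In each of these genes shEzh2.781 array 1 was the lowest of the 6 and array 2 the next. With all probe sets in the fit, Car2, Slc4a1, Car1, Rhag, Cldn13 and Aqp1 were no longer called against both other groups. The larger adjusted p in limma was then 0.0751 for Car2, 0.0928 for Slc4a1 and 0.1285 for Car1.

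Most of the erythroid list was lower too. Of 19 measured members 16 were lower than in premalignant cells, 17 were lower than in shEzh2.556 lymphomas, 16 were lower than in both and none was higher in either comparison. The median member differed by -1.37 from premalignant cells and by -0.98 from shEzh2.556. The erythroid regulator Klf1 was among the smaller falls, from 7.40 on both premalignant arrays to 6.64 and 6.90. The summed linear signal of the list was 3966 and 4479 on the shEzh2.781 arrays, against 6654 and 7770 in premalignant cells and 7173 and 5864 with shEzh2.556. Of 12 listed haem synthesis genes 10 were measured, as genes on chromosomes X and Y were among those left out. Against premalignant cells 2 of these 10 were lower, beside 6.19% of all genes. Against shEzh2.556 1 was lower, beside 4.54%. Their median differences were -0.15 and -0.01, smaller than those of the erythroid list. In bulk samples fewer erythroid cells and less erythroid RNA per cell cannot be told apart. The count against shEzh2.556 was 10 without array 1 of that group, and 2 with all probe sets in the fit.

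The other leading genes on the low side are on no red cell list. Dock10, a guanine nucleotide exchange factor of lymphocytes, read 9.84 and 9.82 in premalignant cells, 8.08 and 7.99 with shEzh2.781 and 9.35 and 9.45 with shEzh2.556, so that it was 3.46-fold and 2.57-fold lower (limma, adjusted p = 1.49e-06 and 3.46e-05). Tnfrsf21, death receptor 6, fell 5.90-fold from 9.25 and 9.70 to 6.74 and 7.09. Slc15a2, a peptide transporter, read 5.80 and 5.50 against 6.79 and 7.56 in premalignant cells and 8.37 and 8.76 with shEzh2.556. Nxpe2, of unclear function, fell 3.84-fold. With all probe sets in the fit, Tnfrsf21 and Nxpe2 were no longer called against both other groups.

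The largest rises over premalignant cells alone were mostly shared with the other hairpin. Cpn1, the catalytic subunit of the plasma enzyme carboxypeptidase N, stood at 5.81 and 5.71 in premalignant cells and at 11.51 and 11.65 in shEzh2.781 lymphomas, a 56.5-fold rise (limma, adjusted p = 1.25e-10), and at 11.60 and 11.67 with shEzh2.556. Foxf2, a forkhead factor of mesenchyme and a member of the list of polycomb-controlled developmental factors, rose 21.8-fold to 11.50 and 11.51. Hepacam2, an adhesion molecule, rose 21.9-fold. Nes, the intermediate filament nestin of neural progenitors, rose 8.73-fold, Apobec2, a muscle member of the APOBEC family, 8.93-fold and Klhl41, a sarcomere protein, 6.62-fold. Ccdc180 rose 11.5-fold and Rhoj, a small GTPase of endothelium, 10.8-fold. For these 8 genes the difference between hairpins lay between -0.31 and 0.20 and was not called. Of the 12 largest rises, Tmeff1, Eml1, Kcnk1 and Mucl2 differed between hairpins.

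Foxf2 was the only gene of 60 measured polycomb-controlled developmental factors that was higher than in premalignant cells, and none was lower. Over all genes 4.65% were higher and 6.19% lower, so the list did not exceed the share of all genes. The list's median difference was -0.003, beside -0.03 over all genes. Against shEzh2.556, where 5.47% of all genes were higher and 4.54% lower, Isl1 was higher and Gata6, Sox17 and Nkx2-1 were lower. All 3 of the lower genes read 5.65 to 6.16 on the shEzh2.781 arrays. None of these 3 calls was made after quantile normalization or without either shEzh2.556 array, and 1 was made without either shEzh2.781 array.

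Among the 11 measured PRC2 genes, only Ezh2 fell and only Epop, an adaptor that joins PRC2 to elongin, rose, from 8.45 and 8.40 to 9.12 and 9.09 (0.68 ± 0.11 log2, SE; limma, adjusted p = 0.00225). Suz12, the scaffold subunit, was 11.85 and 11.79 in premalignant cells and 11.74 and 11.78 with shEzh2.781. Eed, which binds the methylated histone, was 10.41 and 10.20 and then 10.38 and 10.69. Ezh1, the alternative methyltransferase, was 9.50 and 9.60 and then 9.41 and 9.51. None of these 3 was called, with adjusted p of 0.371 to 0.828 in limma, and the difference was negative for Suz12 (-0.06) and Ezh1 (-0.09) as deposited and positive after median centring (0.06 and 0.03).

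PRC1 genes differed between the lymphomas of the 2 hairpins, with 5 of 18 higher with shEzh2.781, beside 5.47% of all genes. Bmi1, a PRC1 core subunit known as an oncogene that acts with Myc in B cell lymphoma, stood at 8.76 and 8.58 in premalignant cells, 10.14 and 10.08 with shEzh2.781 and 8.78 and 9.07 with shEzh2.556. It was 2.71-fold and 2.26-fold higher in shEzh2.781 lymphomas (limma, adjusted p = 3.05e-05 and 0.000261). Of the 18 measured PRC1 genes, Bmi1 and Pcgf6 rose over premalignant cells and Cbx2, Cbx8 and Pcgf5 fell. Cbx2, a reader of the methyl mark, fell from 10.15 and 9.90 to 8.92 and 8.68. Higher than with shEzh2.556 were Bmi1, Pcgf5, Rnf2, Phc1 and Kdm2b, and none was lower. That count was 2 under quantile normalization, 2 without array 1 of shEzh2.781 and 2 without either shEzh2.556 array. Leaving out either premalignant array left 1 PRC1 gene higher and 1 lower than in premalignant cells, leaving out shEzh2.781 array 2 left 1 higher, and median centring left 1 lower. Cdkn2a, the tumour suppressor locus that Bmi1 is known to repress, read 7.76 and 7.82, then 7.50 and 7.27, with 8.10 and 7.56 in shEzh2.556 lymphomas, and was not called in either comparison (limma, adjusted p = 0.161 and 0.095).

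Oncofetal genes are active in the embryo and silent in most adult tissue. Of 13 measured, 3 were higher than in both other groups and none was lower, beside 1.07% and 0.782% of all genes. Plag1, a zinc finger activator of growth factor genes, read 6.94 and 6.72 in premalignant cells, 7.68 and 7.89 with shEzh2.781 and 5.24 and 5.11 with shEzh2.556. The distance from the other hairpin was 2.61, or 6.10-fold (limma, adjusted p = 4.74e-07), and that from premalignant cells 0.96 (adjusted p = 0.000497). Lin28b, which blocks maturation of let-7 microRNAs, went from 5.37 and 5.58 to 6.47 and 6.13. Each of these values lay below the median gene of its array, which was 7.06 to 7.22. Igf2bp3, an mRNA-binding protein, went from 10.04 and 9.73 to 10.53 and 10.49, with 9.80 and 10.15 in shEzh2.556 lymphomas. The list's median differences were 0.05 and -0.05. Among genes with a mean signal of at least 6, 2 oncofetal genes were higher against each other group. Quantile normalization left 2 higher than with shEzh2.556. Fitting all probe sets left 2 higher than in premalignant cells and 1 higher than with shEzh2.556. Without array 1 of shEzh2.781, or without array 1 of shEzh2.556, 1 of the 3 was higher than with the other hairpin. Leaving out array 2 of premalignant cells left 2 higher than in premalignant cells.

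Chromatin enzymes outside polycomb fell or were not called. Tet1, a dioxygenase that oxidizes methylcytosine, fell 6.75-fold from 9.16 and 9.14 to 6.38 and 6.41 (limma, adjusted p = 8.85e-08), and 6.28 and 6.01 were measured with shEzh2.556. Dnmt3a, a DNA methyltransferase, fell by 0.57, and Tet3 fell by 0.55. Of 27 histone lysine methyltransferases and demethylases, 7 were lower and none higher, with Kdm4a, a demethylase, at -0.61 and Kmt2a, a methyltransferase, at -0.42. That count was 1 without array 2 of premalignant cells, 3 without array 1, 2 without array 1 of shEzh2.781, 3 without array 2 and 4 after median centring.

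**Figure D3:**
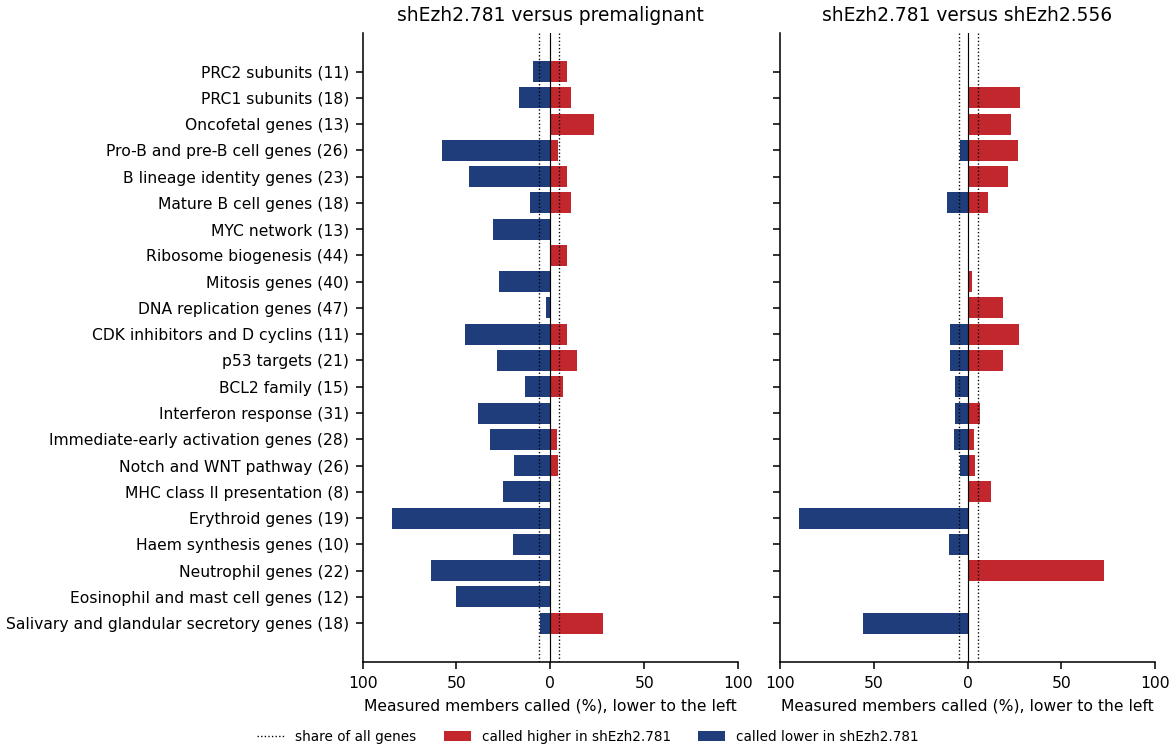
Percent of the measured members of each gene list (number in brackets) called higher (red, to the right) or lower (blue, to the left) in shEzh2.781 lymphomas than in premalignant cells (left panel) and than in shEzh2.556 lymphomas (right panel), with dotted lines at the share over all genes. Erythroid genes are lower in both panels, with 16 and 17 of 19 called, and neutrophil genes lie to the left in one panel and to the right in the other.

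In the list of pro-B and pre-B cell genes, 15 of 26 were lower than in premalignant cells and 1 was higher, with a median difference of -0.59. Igll1, a surrogate light chain component, fell from 11.26 and 11.79 to 8.41 and 7.11, and Dntt, the enzyme that adds bases at V(D)J junctions, from 7.38 and 8.11 to 5.04 and 5.03. Lef1, a transcription factor of pro-B cells and of the WNT pathway, fell 8.87-fold, from 10.73 and 11.06 to 7.77 and 7.73 (limma, adjusted p = 5.60e-08). These 3 did not differ between hairpins.

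Against shEzh2.556, 7 of the 26 genes were higher and 1 lower, beside 5.47% and 4.54% of all genes. The other 18 were not called. The list's median difference from shEzh2.556 was -0.06, beside -0.07 over all genes, so the list as a whole did not lie higher. Il7r, the receptor of the cytokine that sustains B progenitors, read 10.95 and 11.68 in premalignant cells, 11.72 and 11.30 with shEzh2.781 and 9.66 and 9.58 with shEzh2.556. It was 3.71-fold above the other hairpin (limma, adjusted p = 0.000244) and was not called against premalignant cells (adjusted p = 0.672). Bst1, a surface enzyme of B progenitors, read 9.54 and 9.35, then 10.30 and 9.13, with 7.36 and 6.99 in shEzh2.556 lymphomas. The recombinase genes Rag1 and Rag2 were intermediate: Rag1 read 10.46 and 10.74, then 9.57 and 9.17, with 8.45 and 8.38 in shEzh2.556 lymphomas. Sox4, a factor of B progenitors, was intermediate too, at 10.04 and 10.16, then 9.16 and 8.37, with 7.26 and 7.30. Vpreb2 was lower than in both other groups. With all probe sets in the fit 3 of the list were higher than with shEzh2.556.

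B lineage identity genes had 10 of 23 members lower and 2 higher than in premalignant cells, and 5 higher and none lower than with shEzh2.556. Bach2, a repressor of plasma cell fate, fell by 1.01, from 11.96 and 12.06 to 10.96 and 11.03. Pax5, the B lineage commitment factor, fell by 0.42, from 11.97 and 12.06 to 11.54 and 11.66. Bank1, a B cell receptor adaptor, rose 2.19-fold and Cd22, an inhibitory receptor, 1.37-fold. Cd72, a B cell coreceptor, read 12.22 and 12.44, then 11.84 and 11.87, with 10.43 and 10.20 in shEzh2.556 lymphomas, a 2.91-fold distance between hairpins. Leaving out array 2 of premalignant cells turned the count of 10 into 2, and leaving out shEzh2.781 array 1 or array 2 turned it into 4 or 6. The count of 5 was 3 when shEzh2.781 array 2 or either shEzh2.556 array was left out. The 3 measured immunoglobulin constant region genes, Ighm, Igha and Ighg3, fell, Ighm from 10.49 and 9.98 to 7.71 and 8.94. Their median difference from premalignant cells was -2.45 with shEzh2.781 and -2.47 with shEzh2.556. None of the 3 was called between hairpins.

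Of 40 mitosis genes 11 were lower than in premalignant cells, beside 6.19% of all genes. The list's median difference was -0.38, and that of shEzh2.556 from premalignant cells was -0.49. Against shEzh2.556, 1 mitosis gene was higher, beside 5.47% of all genes. Cdc25b, a phosphatase that opens mitosis, fell by 1.40, from 11.90 and 11.82 to 10.56 and 10.35 (limma, adjusted p = 1.80e-05), Cenpf, a kinetochore protein, fell by 0.85 and Cenpe, a kinetochore motor, fell by 0.66. Of 47 DNA replication genes only Mcm7 fell, and the list's median was 0.05. Against shEzh2.556, 9 replication genes were higher and none was lower, with a median of 0.25. Rfc3, a clamp loader subunit, read 10.51 and 10.20, then 10.71 and 10.36, with 9.49 and 9.66 in shEzh2.556 lymphomas (1.95-fold between hairpins; limma, adjusted p = 0.00249). Rpa3, which binds single-stranded DNA, read 10.49 and 10.03, then 10.46 and 10.44, with 9.79 and 9.63. Both counts moved with the arrays used: the mitosis count was 3 if premalignant array 1 was left out, 4 for array 2, 3 for shEzh2.781 array 2 and 4 after median centring, and the replication count was 1 to 3 without any 1 of the 4 lymphoma arrays, 3 under quantile normalization and 20 after median centring.

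**Figure D4:**
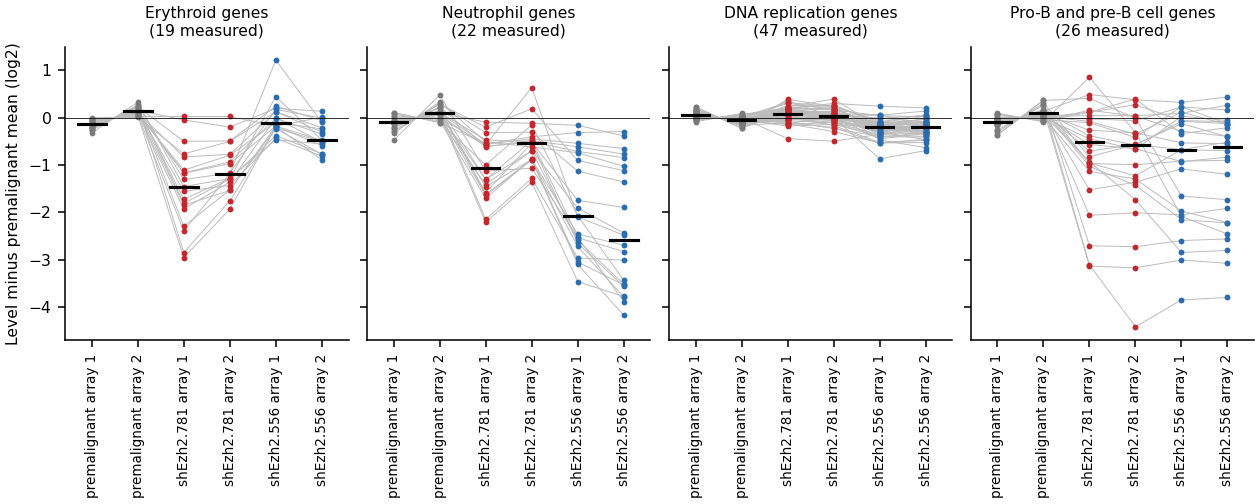
Log2 level of each measured member of 4 gene lists relative to its premalignant mean (y axis) on each of the 6 arrays (x axis), with 1 point per gene, thin lines joining a gene and black bars at the list median. Erythroid medians are lowest on the shEzh2.781 arrays. Neutrophil medians on those arrays lie between the other groups, and replication medians are lowest on the shEzh2.556 arrays.

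Among CDK inhibitors and D cyclins, Ccnd1, cyclin D1, rose from 10.53 and 10.71 to 11.99 on the lower of the lymphoma arrays (2.59-fold; limma, adjusted p = 1.65e-05), while Ccnd2, Ccnd3 and Cdk6 fell, Ccnd2 3.17-fold and Cdk6, the kinase partner of D cyclins, 2.34-fold. Cdkn2c, the inhibitor p18, read 10.24 and 10.33 in premalignant cells, 9.82 and 9.75 with shEzh2.781 and 8.55 and 8.62 with shEzh2.556, 2.30-fold above the other hairpin (limma, adjusted p = 7.29e-05). Cdkn1b, the inhibitor p27, was 1.60-fold above the other hairpin and was not called against premalignant cells. In all 5 of the 11 genes were lower than in premalignant cells, and 3 without either premalignant array or without shEzh2.781 array 2.

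Myc itself read 13.11 and 13.05 in premalignant cells and 13.18 and 13.20 in shEzh2.781 lymphomas and was not called (adjusted p = 0.656 in limma); the probe set does not separate transgene from endogenous gene. Of 13 MYC network genes 4 were lower, beside 6.19% of all genes. The 4 included Mxd1, Mxd3 and Mxd4, which code for antagonists of MYC. Of 44 ribosome biogenesis genes 4 were higher and none was lower, beside 4.65% and 6.19% of all genes, and the median was 0.23. After median centring 13 were higher, and none was when premalignant array 2 or shEzh2.781 array 2 was left out, and 1 when shEzh2.781 array 1 was. Leaving out premalignant array 2 or shEzh2.781 array 1 left 1 MYC network gene lower, as did median centring.

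Most survival genes of the BCL2 family were not called. Of 15 measured, 1 was higher and 2 were lower than in premalignant cells, beside 4.65% and 6.19% of all genes. The other 12 were not called, and the list's median difference was 0.02. Bcl2, which blocks apoptosis, rose from 8.62 and 9.05 to 9.61 and 9.85 (1.85-fold; limma, adjusted p = 0.00471), and Bcl2l1, the gene of BCL-XL, fell from 8.22 and 8.52 to 7.35 and 7.31. The rise of Bcl2 was not called without premalignant array 1 (adjusted p = 0.0545 in limma) or with all probe sets in the fit (adjusted p = 0.0713 in limma). Bok, a BAX-like family member, was lower than in both other groups. Of 21 measured p53 targets 3 were higher and 6 lower than in premalignant cells, beside 4.65% and 6.19% of all genes. Gadd45a, a stress gene of this list, read 8.19 and 8.11, then 7.60 and 7.59, with 11.11 and 10.95 in shEzh2.556 lymphomas. It was 10.8-fold below the other hairpin (limma, adjusted p = 9.85e-09). Mdm2, the ubiquitin ligase of p53, fell by 0.56, from 9.53 and 9.59 to 9.04 and 8.96, a call lost without premalignant array 2 (adjusted p = 0.069 in limma), without shEzh2.781 array 2 (0.0562) and with all probe sets in the fit (0.0573). Ei24 was the 1 p53 target higher than in both other groups. Bcl6, a repressor of germinal centre B cells, read 7.30 and 7.68, then 6.76 and 7.18, and was not called (adjusted p = 0.0663 in limma). Leaving out premalignant array 1 (0.0488) or shEzh2.781 array 2 (0.00848) brought it past the threshold. The count of 6 was 1 without premalignant array 2, and the count of 3 was 1 without that array or either shEzh2.781 array.

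Of 31 interferon response genes 12 were lower than in premalignant cells and none was higher, beside 6.19% and 4.65% of all genes. The fall was shared with the other hairpin. The list's median difference from premalignant cells was -0.37 with shEzh2.781 and -0.46 with shEzh2.556, and it was -0.04 between hairpins. Irf7, a master regulator of the response, fell from 8.08 and 7.95 to 7.06 and 7.20, and the RNA sensor Ddx58 from 10.01 and 9.98 to 8.57 and 8.92. Isg20, an exonuclease, and Oas2, a synthetase of the RNase L activator, were lower than in both other groups; without array 1 of shEzh2.781 or of shEzh2.556 no interferon gene was below shEzh2.556, and without shEzh2.556 array 2 or after either other scaling 1 was. Of 28 immediate-early genes 9 were lower and 1, Fosl2, was higher. Fos read 7.75 and 8.96 in premalignant cells and 6.93 and 6.53 in shEzh2.781 lymphomas, and Cd69, an activation antigen, 7.37 and 8.51, then 5.57 and 6.25, with 7.0 and 7.37 in shEzh2.556 lymphomas. Premalignant array 2 was the higher of its pair for Fos, Cd69, Jun and Dusp1, and without it the count was 6. Of 26 genes in the Notch and WNT list 5 were lower and 1 was higher than in premalignant cells, with a median of -0.16. Against shEzh2.556, 1 was lower and 1 higher, with a median of -0.20. After either other scaling the count of 5 was 3. The 1 riser was Fzd6, a WNT receptor, which rose 2.02-fold, from 6.96 and 7.07 to 8.27 and 7.78. It was the only gene of the list higher than in both other groups, and none was lower than in both.

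Genes of other blood cells lay beside these differences, and their part in them was not tested. Neutrophil genes held an intermediate place: 14 of 22 were lower than in premalignant cells and 16 were higher than with shEzh2.556. Over all genes the shares were 6.19% and 5.47%. Ltf, lactoferrin of neutrophil granules, read 10.14 and 10.28, then 8.0 and 8.85, with 6.75 and 6.44 in shEzh2.556 lymphomas. The list's summed linear signal was 11920 and 13800 in premalignant cells, 4980 and 7825 with shEzh2.781 and 2580 and 1798 with shEzh2.556. Leaving out premalignant array 2 turned the count of 14 into 5, leaving out shEzh2.781 array 1 turned it into 8, and the count of 16 was 4 with all probe sets in the fit.

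Eosinophil and mast cell genes, 6 of 12 of which were lower, included Ear6, a ribonuclease of eosinophil granules, at 9.33 and 9.34 in premalignant cells and 5.62 and 5.53 in shEzh2.781 lymphomas, and the granule proteins Prg2 and Epx, which fell 8.08-fold and 6.84-fold. The list's summed signal was 643 to 722 on the 4 lymphoma arrays and 2038 and 2129 in premalignant cells. Ppbp, a platelet chemokine, read 8.12 and 9.54, then 5.30 and 5.27, and Siglech, of plasmacytoid dendritic cells, 8.35 and 9.26, then 5.78 and 6.09. Of 11 megakaryocyte and platelet genes 5 were lower and 6 were not called. Among 15 dendritic cell genes 6 were lower, 1 was higher and 8 were not called. Among 24 macrophage and monocyte genes 4 were lower, 1 was higher and 19 were not called, with a median of 0.04. Of 22 T cell genes 7 were lower and none higher, and of 20 stromal and endothelial genes 5 were lower. Over all genes 6.19% were lower and 4.65% higher. Leaving out premalignant array 2 made the T cell count 3, and leaving out shEzh2.781 array 1 or using either other scaling made it 4. The stromal count was 2 without premalignant array 2, 8 without array 1 and 3 after quantile normalization.

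Salivary and glandular genes set the hairpins apart more than they set shEzh2.781 lymphomas apart from premalignant cells. Of 18 measured, 5 were higher and 1 lower than in premalignant cells, and 10 were lower than with shEzh2.556. Mucl2, a secreted mucin-like protein, read 3.89 and 4.17, then 7.01 and 5.96, with 11.35 and 11.01 in shEzh2.556 lymphomas. Bpifa2, a salivary secretory protein, read 4.94 and 5.80, then 7.34 and 8.05, with 11.82 and 11.32. Pip, another secreted glandular protein, read 4.42 and 4.40, then 4.70 and 4.68, with 9.81 and 9.29, and was not called against premalignant cells. The list's summed signal was 1190 and 1406 in premalignant cells, 1673 and 1888 with shEzh2.781 and 18970 and 13320 with shEzh2.556.

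Among the remaining large falls, Marcks, an actin-regulating substrate of protein kinase C, read 9.30 and 9.55, then 6.11 and 6.38, and was also below shEzh2.556 (6.76 and 6.83). Hook1, a cargo adaptor of dynein, fell 8.66-fold, Tes, a focal adhesion protein, 7.44-fold and Adgrg1, an adhesion receptor, 8.78-fold. The difference of these 3 from shEzh2.556 was not called.

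The 2 shEzh2.781 lymphomas were close to each other but not alike in every gene. Over 10035 genes with a mean of at least 7, the difference between their arrays had an SD of 0.196, beside 0.208 for the premalignant pair and 0.212 for the shEzh2.556 pair. Differences of at least 2-fold were found for 37 genes, against 15 and 19 in the other pairs. Array 1 was higher for Bmp4, a bone morphogenetic protein, at 9.58 against 7.44, for Ccl9, a chemokine, at 9.87 against 7.79, and for Adgrl2, an adhesion receptor, at 11.13 against 9.02. Gfra2, a coreceptor of neurturin, Mmp14, a membrane metalloproteinase, and Sertad4 followed. Array 2 was higher for As3mt, an arsenic methyltransferase, at 7.78 against 5.95, for Plek, a protein kinase C substrate of leukocytes, at 8.98 against 7.68, and for Dcpp3, Pcp4, Hdac9 and Tlr1. With 1 value a side these differences have no test.

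Lists differed between the 2 lymphomas too. All 8 MHC class II genes measured were higher on array 2, by a median of 0.59, as were 19 of 22 neutrophil genes (0.59) and 17 of 19 erythroid genes (0.26). Mitosis genes were higher on array 1 in 38 of 40, by a median of 0.19. Ighm read 7.71 on array 1 and 8.94 on array 2.

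Along the genome, medians of shEzh2.781 against premalignant cells lay between -0.06 and 0.04 for the 19 autosomes. Between the 2 lymphomas chromosomes 15 and 19 stood apart. The 421 genes of chromosome 15 were higher on array 1 by a median of 0.10, with 80.3% of them higher there, and the 374 genes of chromosome 19 were lower on array 1 by a median of 0.14, with 16.0% of them higher. Over all 10035 genes 48.3% were higher on array 1, and the other 17 autosomes had medians between -0.04 and 0.01. In the premalignant pair the autosome medians lay between -0.04 and 0.06, and in the shEzh2.556 pair between -0.10 and -0.01. Chromosome 15 carries the endogenous Myc gene, whose level was 13.18 and 13.20 on the 2 arrays. No DNA copy number was measured.

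**Figure D5:**
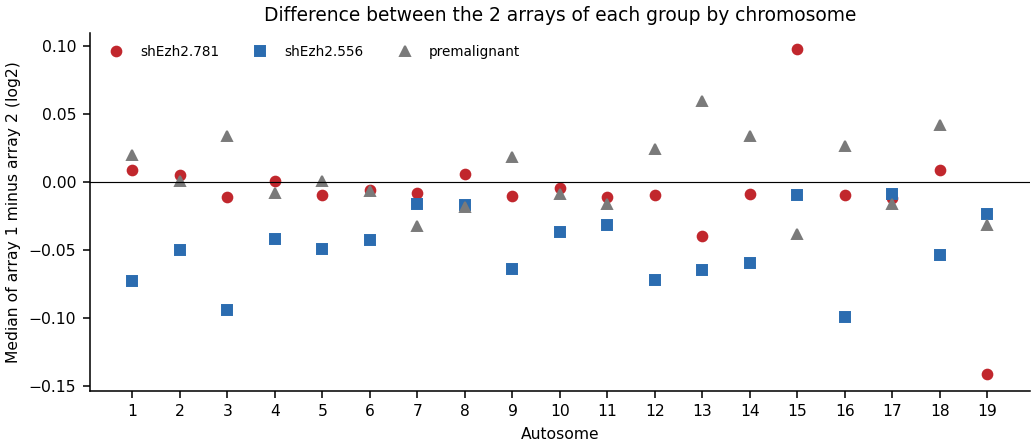
Median difference between array 1 and array 2 of each group (y axis, log2) for each autosome (x axis), over genes with a mean of at least 7. In the shEzh2.781 pair chromosome 15 lies at 0.10 and chromosome 19 at -0.14, and the other 17 autosomes between -0.04 and 0.01.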

How the data were processed

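Total RNA of 6 samples was hybridised to Affymetrix Mouse Gene ST arrays, 2 per group, per the labels' protocols. The authors deposited 1 normalized log2 value per probe set; that the scale is log2 follows from their range, 2.30 to 14.2. Background correction, normalization and summarization are not given in the sources used here.

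Of 35512 probe sets, 21789 had 1 gene symbol, 1621 several and 12102 none, from GEO's platform annotation, which can be old. The last 2 kinds were used only for a count. For 999 genes with several probe sets the brightest was taken. Chromosomes came from RefSeq (GRCm38.p6), and 22 genes had none listed there and were kept.

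The 3 group means were fitted with limma 3.58.1 in R 4.3.3, and variances were moderated by empirical Bayes (prior degrees of freedom 8.51, residual 3). The Benjamini-Hochberg adjustment ran over 19938 genes. The contrast between hairpins equals the difference of their changes from premalignant cells. The fit was also run on simulated arrays with known changes. Their spread was drawn from the fit's own estimates, so that run checks the code and not the fit's assumptions. Same-numbered arrays did not deviate together (correlations of deviations -0.10, -0.13 and 0.06), so no pairing was used.

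Gene lists (47, with 971 of 1092 symbols measured off X and Y) were described by counts and medians, not tested. The comparison, the lists and their members were chosen with earlier results of these data known. Named genes were the 12 largest changes in each direction against premalignant cells and the 12 against both other groups among called genes whose arrays do not overlap, the 6 largest in each direction between the 2 shEzh2.781 arrays, Ezh2, Ezh1, Eed, Suz12, Cdkn2a, Mdm2, Myc, Bcl2 and Bcl6, up to 4 members per list, and any member where its list is described. The ranking left out gene models without a name, segments of antigen receptors, chemosensory receptors and small RNAs. Promoters were the first entry per gene in the RefSeq table. Summed signals are sums of 2 to the power of the log2 values. The number of arrays limits the precision. Tables and plots used Python 3.11.15 with pandas 2.3.3 and matplotlib 3.10.9. Alternatives covered scaling, filters, probe sets, moderation, samples and features in the fit.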

Additional observations from a re-analysis of the deposited data

Results flagged for a closer look

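By limma's contrast between the 2 pairs of lymphomas, 1049 genes were higher and 872 lower with shEzh2.781 than with shEzh2.556. Hairpin and individual tumour cannot be told apart in it. Differences below are shEzh2.781 minus shEzh2.556 on the log2 scale. Among the genes named above, these lay higher in shEzh2.781 lymphomas: Rasgef1a by 2.96, Stac by 2.11, Tmeff1 by 2.10, Kcnk1 by 2.00, Plekha7 by 1.97, Eml1 by 1.94, Igf1r by 1.93, Sgsm1 by 1.72, Grk3 by 1.63, Zfp931 by 1.51, Arsi by 1.30 and Farp1 by 1.25. Genes of the erythroid list and Hemgn differed in the other direction, Car1 by -2.34, Car2 by -1.90, Slc4a1 by -1.80, Rhag by -1.54, Hemgn by -1.46, Cldn13 by -1.38, Aqp1 by -1.35 and Rhd by -1.31. Further genes lay below shEzh2.556, Slc15a2 by -2.91, Dock10 by -1.36, Nxpe2 by -1.32, Tnfrsf21 by -1.28, Marcks by -0.55 and Mucl2 by -4.69.

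Probe sets outside the gene analysis also differed from premalignant cells. With all probe sets in 1 limma fit, 39 of 12102 probe sets with no gene symbol and 3 of 1621 with several were higher in shEzh2.781 lymphomas, and 226 and 22 were lower.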

How the results depend on the processing

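Counts of genes changed with the scaling, the features fitted, the minimum fold and the arrays used. Below, a pair of counts gives genes higher and genes lower in shEzh2.781 lymphomas. After median centring, which moved the median of all genes from -0.03 to 0.09 against premalignant cells and from -0.07 to 0.04 against shEzh2.556, 1686 genes were higher than in premalignant cells, 2152 and 439 were called against shEzh2.556 and 501 and 96 against both. Quantile normalization left 552 lower than with shEzh2.556 and 99 lower than in both. Fitting all probe sets, an alternative chosen after seeing the data, gave 368 and 453 against premalignant cells, 141 and 80 against shEzh2.556 and 32 and 14 against both. A minimum of 2-fold left 197 and 250, 146 and 83, and 25 and 19. Leaving out 1 array at a time gave 478 to 837 higher and 576 to 1131 lower than in premalignant cells, 433 to 1066 and 251 to 935 against shEzh2.556, and 111 to 195 and 66 to 158 against both. The lowest counts came without premalignant array 2 against premalignant cells and without shEzh2.556 array 1 against the other 2 comparisons. With the replicate number as a block the counts were 843 and 1152, 988 and 717, and 208 and 144; the numbers do not pair the samples, and the block is given for completeness. It left 5 of 9 DNA replication genes higher than with shEzh2.556.

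The 57 values of named genes were recomputed under the alternatives, 829 values in all, and 802 kept both direction and call. Weaker calls numbered 22, of which 13 came from fitting all probe sets. That fit lost the call against both other groups for Zfp931, Arsi and Farp1 on the high side. On the low side it lost that of Car2, Slc4a1, Car1, Rhag, Cldn13, Aqp1, Nxpe2 and Tnfrsf21. Without premalignant array 1 the smaller difference of Car1 was not called, as was the case for Car1 and Aqp1 without premalignant array 2 and for Slc4a1 and Aqp1 without shEzh2.556 array 1. Only Ezh1 (0.0308) and Suz12 (0.0605) reversed, after median centring, and neither was called in any setting run here. Signal over background limits genes near the floor, and 2 arrays a group limit all.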

Other observations

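Immunoglobulin variable segments were left out of the ranking, and 1 was picked out after its values were seen. Igkv5-43 read 8.02 on shEzh2.781 array 2 and 5.82 on array 1, with 5.47 and 5.19 in premalignant cells and 4.79 and 3.88 with shEzh2.556. Stag3, a meiotic cohesin subunit, was the 1 of 20 germline genes called lower than in both other groups, at 7.48 and 7.53 in premalignant cells, 5.48 and 5.61 with shEzh2.781 and 6.03 and 6.04 with shEzh2.556. Of 12 plasma cell genes 2 were higher than in premalignant cells, 1 was lower and 9 were not called: Fkbp11, a chaperone of secretory cells, rose 2.09-fold and Mzb1, another such chaperone, 1.66-fold, while Prdm1, the regulator of plasma cell fate, fell by 0.47. Of 10 germinal centre genes Cd86, a costimulatory ligand, and Plxnb2, a semaphorin receptor, rose, Cd86 from 7.0 and 6.65 to 8.04 and 8.16, and the other 8 were not called. Of 18 mature B cell genes 14 were not called, beside 4.65% of all genes higher and 6.19% lower; 2 were higher, Fcgr2b, the inhibitory Fc receptor, at 2.82-fold and Itgb7, an integrin chain, at 1.74-fold, and 2 were lower, Cd1d1, which presents lipids, and Zbtb20, a zinc finger repressor.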
